A study of Mus musculus with 8 samples.

Results

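The 10 genes described here are markers in common use for pericytes: Pdgfrb, Cspg4, Mcam, Rgs5, Rgs4, Abcc9, Ebf1, Ndufa4l2, Cox4i2 and Higd1b. They were taken by symbol from a deposited table of 53801 mouse genes, and all 10 were found. The table held 8 RNA-seq libraries of stromal cells, sorted as negative for CD45, a marker of leukocytes, and CD31, a marker of endothelium, from small-intestinal ulcers of LTβRYFP mice. The reporter background and the treatment, indomethacin, were common to both groups; indomethacin blocks cyclooxygenases and causes ulcers in the gut. The YFP-positive fraction (4 libraries, 14564835 to 29385718 counts) was set against the YFP-negative fraction (4 libraries, 12481608 to 28931436 counts), each numbered 1 to 4. The sources used here do not give what drives the YFP, the strain and age of the mice, or whether a library is 1 animal or a pool. P-values therefore measure the spread between these libraries only.

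Pericytes are the mural cells that wrap capillaries and small venules, on the outer side of the endothelium and within its basement membrane. Endothelial PDGF-B recruits and keeps them through the receptor tyrosine kinase PDGFRβ. They grade into the smooth muscle cells of larger vessels, and in the gut PDGFRβ is also made by fibroblasts. By role, the list holds surface proteins (Pdgfrb, Cspg4, Mcam), regulators of G protein signalling (Rgs5, Rgs4), the sulphonylurea receptor of a potassium channel (Abcc9), a transcription factor (Ebf1), and genes for mitochondrial proteins (Ndufa4l2, Cox4i2, Higd1b).

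The list did not stand at 1 level. Counts were scaled to a common library total with TMM factors (CPM), and to compare genes they were divided by exon length (CPM per kb). Over the 8 libraries Rgs5 stood at 223 ± 46.0 CPM per kb, Pdgfrb at 52.4 ± 11.6, Abcc9 at 20.2 ± 5.40 and Cspg4 at 11.1 ± 2.80 CPM per kb (SD, n = 8). Each of these lay above the next in 8 of 8 libraries, Cspg4 above Mcam included. Mcam, Rgs4 and Ebf1 lay together at 4.40 ± 1.33, 4.19 ± 0.675 and 4.02 ± 1.51 CPM per kb (SD, n = 8), with Mcam above Rgs4 and Rgs4 above Ebf1 in 5 of 8 libraries each. Ndufa4l2, Cox4i2 and Higd1b stood at 0.437, 0.362 and 0.0472 CPM per kb. Among the genes tested 24.6% were under 1 CPM per kb, and 3 of the 10 markers were.

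The label of the list was therefore met by some of its genes only. Pdgfrb, Rgs5 and Cspg4 were present in every library, and Rgs5 was above 99.3% of the genes tested by CPM per kb. Ndufa4l2, Cox4i2 and Higd1b, whose mRNAs are reported as enriched in pericytes of several mouse organs, were at or near 0. Cox4i1, the form of the Cox4i2 subunit of cytochrome c oxidase that most cells use, was listed at 0 in 8 of 8 libraries. A 0 in this table is thus not by itself a sign of absence. Other genes of this kind were counted in every library, with Cox5b at 40.9 and Ndufa4 at 15.2 CPM in YFP-positive cells. Cox4i2 and Higd1b overlap no other gene, and Ndufa4l2 shares 32 exon bases with an opposite gene. Whether the Cox4i1 case bears on these genes was not tested. The libraries were also rich in fibroblast RNA: Pdgfra, the PDGF receptor that marks gut fibroblasts, was 3.18 times as high as Pdgfrb per kb and above it in 8 of 8 libraries. The genes are called the listed markers below, and no cell type is read from them. In bulk RNA, fewer cells of a type and less RNA per cell cannot be told apart.

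**Figure D1:**
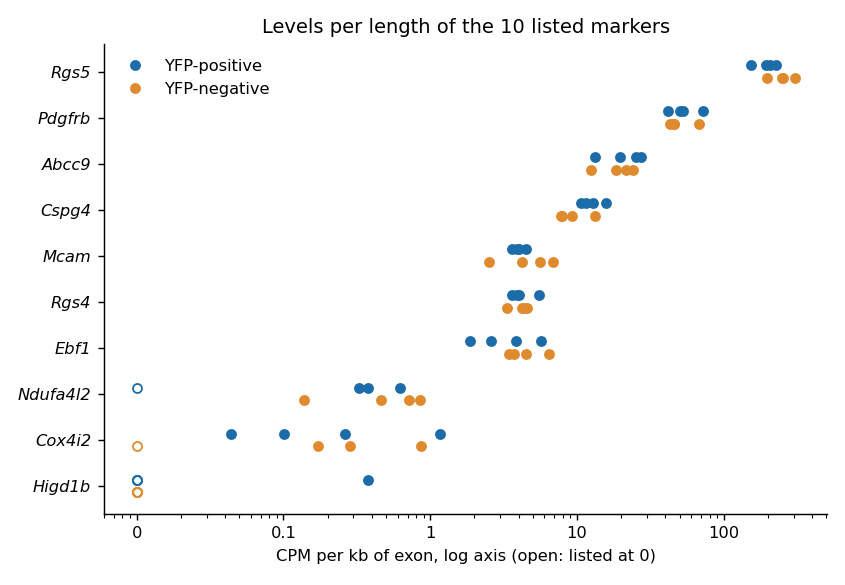
CPM per kb of exon (log axis) of the 10 listed markers in the 4 YFP-positive (blue) and 4 YFP-negative (orange) libraries, 1 point a library, with open points for libraries in which the gene is listed at 0. Rgs5 is at the top (223 CPM per kb on average) and Ndufa4l2, Cox4i2 and Higd1b lie below the next gene, Ebf1, by 9.20-fold or more.

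The comparison between the sorted fractions asked whether the markers differed with YFP. In the edgeR test of group alone, 0 of the 8 markers that passed the count filter were called (adjusted p of 0.05 or less), as were 0% of the 15945 genes tested. At an unadjusted p of 0.05, 0 of the 8 markers and 325 of all genes passed, and DESeq2 and limma voom, also without pairing, called 0 of the 8. With the replicate number as a block, which compares each YFP-positive library with the YFP-negative library of its number, edgeR called 1 marker higher (Cspg4) and 1 lower (Rgs5) among the 8. Over all genes that fit called 0.696% higher and 1.59% lower, or 2.28% in all. DESeq2 with the block also called Cspg4 higher and Rgs5 lower, beside 1.07% and 2.28% of all genes, or 3.36% in all. Every "rose" or "fell" below refers to the fit with the block. The median log2 fold change of the 8 markers was -0.07, beside 0.00 over all genes tested. With library size as the only scaling, 212 genes were called higher and 153 lower under the block, in place of 111 and 253, and Cspg4 and Rgs5 kept their calls and directions.

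**Figure D2:**
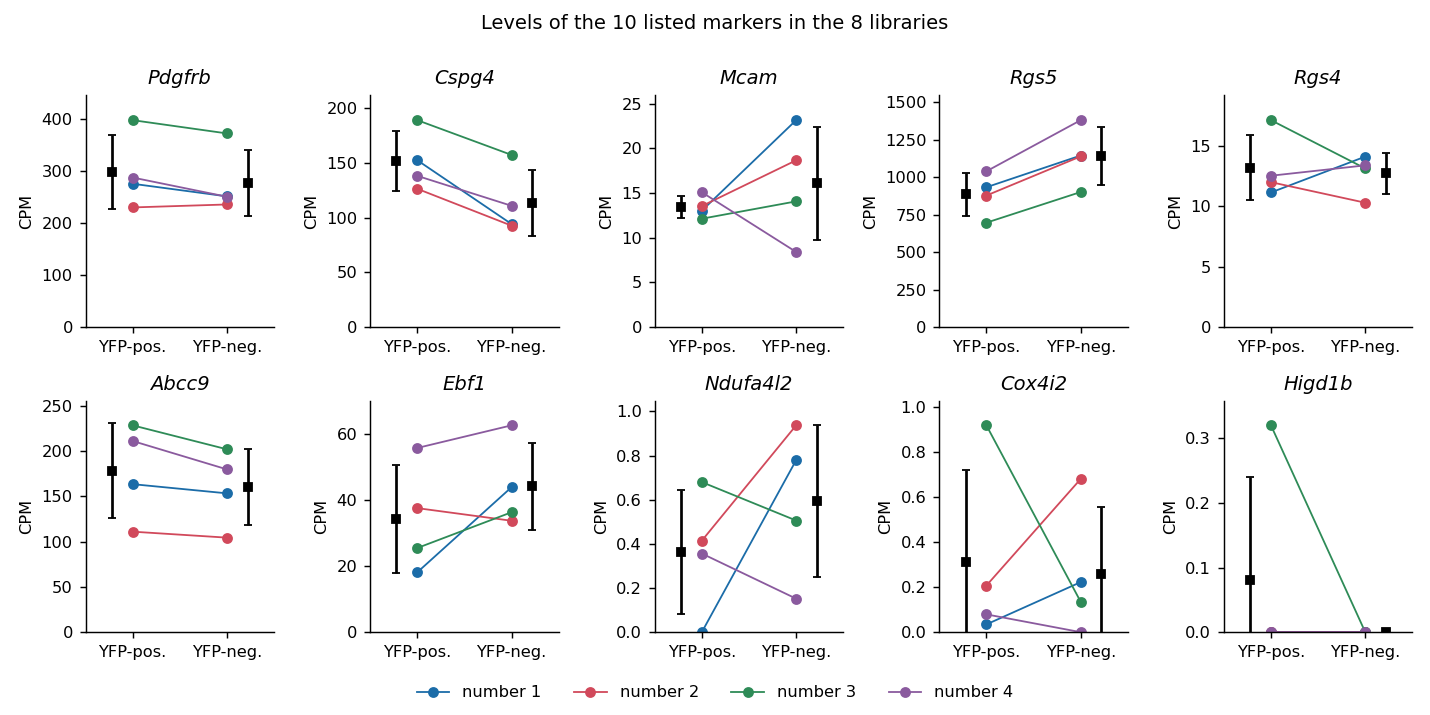
CPM of each listed marker in the YFP-positive (left) and YFP-negative (right) library of each replicate number, joined by a line, with mean and SD as black squares and bars (n = 4 each). All 4 lines of Cspg4 are higher in the YFP-positive library, at 126 to 189 against 92.7 to 157 CPM, and all 4 lines of Rgs5 are lower, at 696 to 1039 against 900.3 to 1380 CPM.

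Pdgfrb encodes the receptor through which PDGF-B acts on mural cells (ENSMUSG00000024620, GRCm38 chromosome 18, 61045150 to 61085061, plus strand). It had 275, 230, 397 and 287 CPM in YFP-positive replicates 1 to 4, against 251, 235, 372 and 250.1 CPM in YFP-negative replicates 1 to 4. The libraries of number 3 were the highest of both groups, and the groups overlapped almost entirely. The blocked log2 fold change was 0.10 with a 95% interval of -0.04 to 0.24, or a 0.974-fold to 1.18-fold level (adjusted p = 0.674, edgeR), and the YFP-positive library was the higher one in 3 of 4 pairs. The interval does not show that the fractions were equal. Without YFP-positive replicate 3, the fit of group alone gave a log2 fold change of -0.07.

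The ligand genes stood at different levels in these cells, which had been sorted as CD31-negative. Pdgfb, the main ligand of PDGFRβ in vessels, had 0.103, 1.24, 0.24 and 1.94 CPM in YFP-positive replicates 1 to 4, against 2.84, 4.17, 0.843 and 0.304 CPM in YFP-negative replicates 1 to 4. Pdgfb averaged 0.351 CPM per kb over the 8 libraries, and Pdgfd, another ligand of PDGFRβ, was the highest of the 4 ligand genes at 6.44 CPM per kb, above Mcam, Rgs4 and Ebf1. Pdgfd had 19.3 ± 6.28 CPM in YFP-positive and 21.3 ± 5.79 CPM in YFP-negative cells (SD, n = 4 each). Of the 6 PDGF ligand and receptor genes, all of which were tested, 0 rose and 0 fell in either edgeR fit. Over all genes tested, 2.28% were called with the block and 0% without it. The median blocked log2 fold change of the 6 genes was -0.12.

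Cspg4, the NG2 proteoglycan of the pericyte surface (ENSMUSG00000032911, chromosome 9, 56865033 to 56899870, plus strand), was higher in YFP-positive cells. It had 153, 126, 189 and 138 CPM in YFP-positive replicates 1 to 4, against 94.2, 92.7, 157 and 111 CPM in YFP-negative replicates 1 to 4. The YFP-positive library was higher in each pair, while YFP-negative replicate 3 lay above 3 of the 4 YFP-positive libraries, so that the groups overlapped. The mean was 152 ± 27.3 CPM in YFP-positive and 114 ± 30.2 CPM in YFP-negative cells (SD, n = 4 each). With the block the log2 fold change was 0.43 ± 0.0793 (SE), with a 95% interval of 0.26 to 0.60 (adjusted p = 0.00803, edgeR). The fit of group alone gave 0.41, with an interval of -0.05 to 0.88 (adjusted p = 0.9999, edgeR). The call held in 9 of 10 blocked settings and was lost without replicate number 1 (adjusted p = 0.05003, edgeR).

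Some smooth muscle genes were also higher in YFP-positive cells. The summed level of the list was 839 to 1759 CPM in YFP-positive and 742 to 1294 CPM in YFP-negative libraries, and in each pair the YFP-positive library had more. Of 12 listed smooth muscle genes 11 were tested, 3 rose (Myh11, Acta2 and Lmod1) and 0 fell, beside 0.696% higher and 1.59% lower of all genes tested, and the median blocked log2 fold change was 0.30. The Lmod1 call was lost in 2 of 10 blocked settings, without number 1 (adjusted p = 0.138, edgeR) and without number 4 (adjusted p = 0.182, edgeR). The defining genes Acta2 and Myh11, for smooth muscle actin and myosin, averaged 256 and 280 CPM in YFP-positive cells, against 188 and 199 CPM in YFP-negative cells. The part of smooth muscle RNA in the Cspg4 result was not tested.

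Mcam encodes CD146, an adhesion protein of pericytes and endothelium (ENSMUSG00000032135, chromosome 9, 44134469 to 44142727, plus strand). It had 13.0, 13.5, 12.1 and 15.1 CPM in YFP-positive replicates 1 to 4, against 23.2, 18.7, 14.1 and 8.40 CPM in YFP-negative replicates 1 to 4. The YFP-positive libraries lay close together and inside the wider range of the YFP-negative ones, and pairs 1 to 3 were lower while pair 4 was higher. For Mcam the blocked log2 fold change of -0.18 had a 95% interval of -0.68 to 0.32 (adjusted p = 0.892, edgeR), and it turned to 0.05 without replicate number 1. Markers of endothelium summed to 52.8, 103, 121 and 287 CPM in YFP-positive replicates 1 to 4, against 90.1, 165, 63.2 and 71.9 CPM in YFP-negative replicates 1 to 4. YFP-positive replicate 4 was the highest by far, and it was also the highest for leukocyte (123 CPM) and epithelial markers (155 CPM). It belongs to the pair in which Mcam was higher, and its partner, at 8.40 CPM, was the lowest YFP-negative library for Mcam. In pair 3 the endothelial sum was also higher in the YFP-positive library, while Mcam was lower. Without number 4, the blocked log2 fold change of Mcam was -0.50 (adjusted p = 0.462, edgeR). Of the 13 endothelial genes 11 were tested, and 0 rose or fell, beside 2.28% of all genes tested. Pecam1, the gene for CD31, averaged 28.6 CPM in YFP-positive and 25.9 CPM in YFP-negative cells, and Cdh5, the gene for VE-cadherin, 11.6 CPM in YFP-positive and 4.70 CPM in YFP-negative cells. Their part in the Mcam values was not tested.

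**Figure D3:**
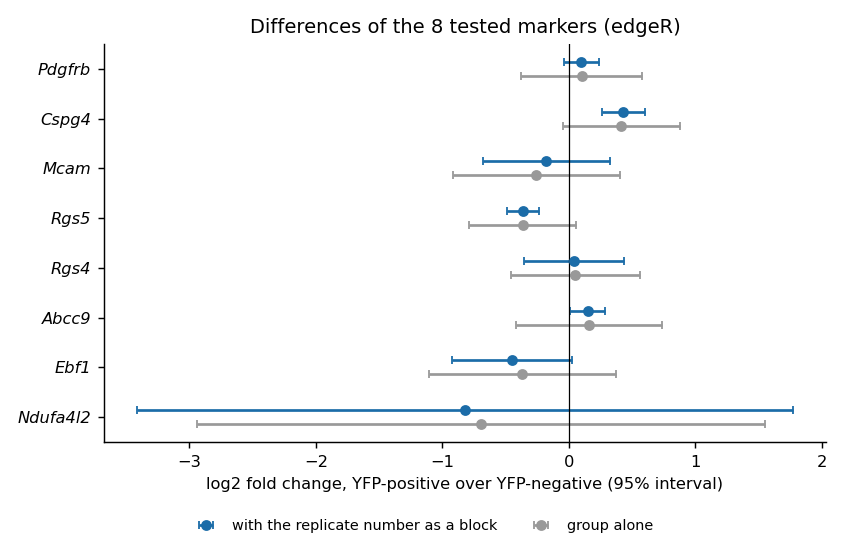
Log2 fold changes of the 8 tested markers, YFP-positive over YFP-negative, with 95% intervals from edgeR, with the replicate number as a block (blue) and from group alone (grey). With the block Cspg4 (0.43) and Rgs5 (-0.36) were called, and the interval of Ndufa4l2, at 75 counts in all, spans -3.42 to 1.77.

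Rgs5 encodes a GTPase-activating protein that shortens signalling through Gq and Gi, and it is among the most used pericyte markers. It lies beside Rgs4 on chromosome 1: Rgs5 (ENSMUSG00000026678) spans 169655501 to 169695813 on the plus strand, and Rgs4 (ENSMUSG00000038530) spans 169741477 to 169747642 on the minus strand, with 0 protein-coding genes in the 45663 bases between them. The bases just before the starts of these neighbours and of Cspg4 are printed because the neighbours stood at very different levels and because Rgs5 and Cspg4 were the called markers. They are RefSeq windows of GRCm38.p6, written 5′ to 3′ on the strand of each gene. Each ends at the last base before the gene in GENCODE M21. Capitals mark a match to TATAAA, a form of the TATA motif.
Rgs5, chr1:169655251-169655500, plus strand: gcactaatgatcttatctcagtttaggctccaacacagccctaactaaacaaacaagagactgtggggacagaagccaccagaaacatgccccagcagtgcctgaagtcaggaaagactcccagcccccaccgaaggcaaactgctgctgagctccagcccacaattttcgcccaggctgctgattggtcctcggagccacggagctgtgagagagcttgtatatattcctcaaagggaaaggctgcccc
Rgs4, chr1:169747643-169747892, minus strand: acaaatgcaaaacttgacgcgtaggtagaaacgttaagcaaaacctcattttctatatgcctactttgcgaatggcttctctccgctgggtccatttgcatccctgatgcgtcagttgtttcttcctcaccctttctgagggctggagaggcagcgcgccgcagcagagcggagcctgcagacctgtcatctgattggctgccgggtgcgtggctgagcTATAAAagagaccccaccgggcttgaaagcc
Cspg4, chr9:56864854-56865032, plus strand: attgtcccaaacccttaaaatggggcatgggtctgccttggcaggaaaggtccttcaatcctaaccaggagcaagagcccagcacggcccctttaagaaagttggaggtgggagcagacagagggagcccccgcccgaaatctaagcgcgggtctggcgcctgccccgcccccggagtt

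Counting both strands, TATAAA was found once in the Rgs4 window, starting 31 bases before the gene, and in 12.4% of 32851 RefSeq windows of 250 bases. The window of Rgs5 and that of Cspg4, which was 179 bases long, held 0 matches. Only the exact letters TATAAA were searched, so the similar stretch tatatatt near the end of the Rgs5 window was not counted. Whether Rgs5 and Rgs4 differ in a TATA element was therefore not tested. The hypoxia element ACGTG was searched because several listed markers are tied to the hypoxia response. It had 0 matches in the windows of Rgs5, Rgs4, Cspg4 and Abcc9 (not printed), and was in 16.6% of all windows. No result is given for Ndufa4l2, Cox4i2 or Higd1b, so the search does not bear on the markers tied to that response. No motif overlapped another, and a match or its lack says nothing of a factor's binding. RefSeq windows were found for 6 of the 10 markers.

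Rgs5 fell in YFP-positive cells. It had 932, 877, 696 and 1039 CPM in YFP-positive replicates 1 to 4, against 1144, 1138, 900.3 and 1380 CPM in YFP-negative replicates 1 to 4. Each YFP-positive library was below its partner, by -0.30, -0.38, -0.37 and -0.41 on the log2 scale in pairs 1 to 4, while the groups overlapped, with number 4 high and number 3 low in both. The mean was 886 ± 143 CPM in YFP-positive and 1140 ± 196 CPM in YFP-negative cells (SD, n = 4 each). With the block the log2 fold change of Rgs5 was -0.36 ± 0.0586 (SE), with a 95% interval of -0.49 to -0.24, or a 0.713-fold to 0.848-fold level (adjusted p = 0.00294, edgeR). In the fit of group alone the same log2 fold change of -0.36 had an interval of -0.79 to 0.06 (adjusted p = 0.9999, edgeR). The call was lost in 1 of 10 blocked settings, without replicate number 3 (adjusted p = 0.0508, edgeR). The authors' deposited table gave Rgs5 a log2 fold change of -0.369 (adjusted p = 1.8e-09) and Cspg4 a log2 fold change of 0.425 (adjusted p = 4.5e-04). It called 3.01% of its 16502 genes with an adjusted p, 0.939% higher and 2.07% lower, and none of the other 6 tested markers.

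The balance between the markers differed between the fractions in each pair. YFP-positive replicates 1 to 4 held 3.39, 3.82, 1.75 and 3.62 counts of Rgs5 per count of Pdgfrb, against 4.56, 4.84, 2.42 and 5.52 in YFP-negative replicates 1 to 4. For Cspg4 the figures were 0.555, 0.551, 0.476 and 0.482 counts per count of Pdgfrb in YFP-positive replicates 1 to 4, against 0.375, 0.394, 0.423 and 0.443 in YFP-negative replicates 1 to 4. These ratios need no scaling between libraries, and they are given as a description, without a test, because the genes were chosen with their direction known. Rgs5 made up 44.4% to 62.3% of the listed markers' summed CPM in YFP-positive and 53.1% to 69.6% in YFP-negative libraries. The summed level of the list, 1408 to 1759 CPM in YFP-positive and 1635 to 2005 CPM in YFP-negative libraries, is therefore mostly a reading of Rgs5.

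Some fibroblast genes were also lower in YFP-positive cells. Of 10 listed pan-fibroblast genes, all tested, 6 fell (Lum, Dcn, Col3a1, Dpt, Col1a2 and Col1a1) and 0 rose, beside 1.59% lower and 0.696% higher of all genes tested, with a median blocked log2 fold change of -0.42. Lum, Dcn and Dpt were called in 10 of 10 blocked settings. DESeq2 with the block did not call Col3a1 (adjusted p = 0.530) or Col1a1 (adjusted p = 0.272), and without number 3 edgeR did not call Col1a1 (adjusted p = 0.109) or Col1a2 (adjusted p = 0.0671). Pdgfra, also on the list, averaged 1670 ± 312 CPM in YFP-positive and 1668 ± 266 CPM in YFP-negative cells (SD, n = 4 each), higher in 2 pairs and lower in 2, and was not called (adjusted p = 0.993, edgeR with the block). Their summed level was 22634 to 37374 CPM in YFP-positive and 27324 to 54663 CPM in YFP-negative libraries, and in each pair the YFP-positive library had less. The part of fibroblast RNA in the Rgs5 result was not tested.

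Rgs4, which acts on the same G proteins, was not called. It had 11.2, 12.0, 17.2 and 12.5 CPM in YFP-positive replicates 1 to 4, against 14.1, 10.3, 13.2 and 13.4 CPM in YFP-negative replicates 1 to 4, with 2 pairs higher and 2 lower. The blocked log2 fold change of 0.04 had a 95% interval of -0.36 to 0.44 (adjusted p = 0.978, edgeR), which overlaps that of Rgs5; the difference between the neighbours was not tested. Rgs5 was 53.2 times as high as Rgs4 per kb. Of the 19 RGS genes listed 15 were tested; Rgs5 fell and Rgs1 rose, beside 1.59% lower and 0.696% higher of all genes tested, and the median blocked log2 fold change was 0.14. Rgs1, known from lymphocytes, had 3.33 to 7.44 CPM in YFP-positive libraries, against 0.641 to 3.24 CPM in YFP-negative libraries (log2 fold change 1.51, adjusted p = 0.0489, edgeR with the block). Its call was lost in 3 of 10 blocked settings (adjusted p up to 0.242, edgeR). The 12 leukocyte markers summed to 25.1 to 123 CPM in YFP-positive and 20.5 to 49.7 CPM in YFP-negative libraries, with more in the YFP-positive library of each pair, and Ptprc, the gene for CD45, averaged 5.52 CPM in YFP-positive and 2.60 CPM in YFP-negative cells. Of 9 tested 0 were called, beside 2.28% of all genes tested, and their part in the Rgs1 result was not tested.

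Abcc9 encodes SUR2, which forms the vascular ATP-sensitive potassium channel with the pore subunit Kir6.1, the product of its neighbour Kcnj8. Abcc9 (ENSMUSG00000030249, chromosome 6, 142587862 to 142702315, minus strand) had 163, 111, 228 and 211 CPM in YFP-positive replicates 1 to 4, against 153, 104, 202 and 180 CPM in YFP-negative replicates 1 to 4. The groups overlapped, yet each YFP-positive library was above its partner, by 0.09, 0.09, 0.18 and 0.23 on the log2 scale. The log2 fold change with the block was 0.15, with a 95% interval of 0.01 to 0.29, and it was not called (unadjusted p = 0.0398, adjusted p = 0.410, edgeR). With Cspg4, it was 1 of 2 tested markers higher in 4 of 4 pairs, as were 8.82% of all genes tested; Rgs5 was the only tested marker lower in 4 of 4, as were 10.2%. Kcnj8 had 107, 74.2, 123 and 89.1 CPM in YFP-positive replicates 1 to 4, against 83.7, 92.2, 96.5 and 77.8 CPM in YFP-negative replicates 1 to 4, and 3 of 4 pairs were higher (log2 fold change 0.15, adjusted p = 0.682, edgeR with the block). Kcnj8 was 1.80 times as high as Abcc9 per kb and above it in 8 of 8 libraries. The paralogous subunits Abcc8 and Kcnj11, of the pancreatic channel, averaged 0.0790 and 0.0716 CPM in YFP-positive cells, against 0.200 and 0.00843 CPM in YFP-negative cells, and were too low to test.

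Ebf1 encodes a transcription factor known from B cell, adipocyte and mural cell development (ENSMUSG00000057098, chromosome 11, 44617317 to 45008091, plus strand). It had 18.1, 37.6, 25.5 and 55.8 CPM in YFP-positive replicates 1 to 4, against 43.9, 33.7, 36.3 and 62.6 CPM in YFP-negative replicates 1 to 4. It was lower in 3 of 4 pairs, most in pair 1 (-1.28 on the log2 scale), and slightly higher in pair 2. The blocked log2 fold change of -0.45 had a 95% interval of -0.92 to 0.03 (adjusted p = 0.492, edgeR), and it was -0.18 without replicate number 1. Its paralogs Ebf2 and Ebf3 averaged 1.19 and 3.49 CPM in YFP-positive cells, against 0.718 and 2.87 CPM in YFP-negative cells, and neither was called in either edgeR fit.

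The mitochondrial genes of the list were at the limit of detection, so that no difference between the fractions could be measured. Ndufa4l2, whose product replaces NDUFA4 under hypoxia, had 0, 6, 17 and 9 counts in YFP-positive replicates 1 to 4, against 14, 11, 15 and 3 counts in YFP-negative replicates 1 to 4 (chromosome 10, 127514967 to 127517154, plus strand). Its blocked log2 fold change of -0.82 had an interval of -3.42 to 1.77 (adjusted p = 0.911, edgeR). Cox4i2, the hypoxia-linked form of a cytochrome c oxidase subunit (chromosome 2, 152754173 to 152765037, plus strand), had 1, 3, 23 and 2 counts in YFP-positive replicates 1 to 4, against 4, 8, 4 and 0 counts in YFP-negative replicates 1 to 4. Higd1b, of a hypoxia-inducible family (chromosome 11, 102835849 to 102838040, plus strand), had 8 counts in YFP-positive replicate 3 and 0 in the other 7 libraries. A count of 0 over the YFP-negative libraries allows a level of up to 0.0379 CPM, counting error only. YFP-positive replicate 3 held most counts of both Cox4i2 and Higd1b. Cox4i2 and Higd1b did not pass the count filter.

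Their widely used paralogs were measured, Cox4i1 excepted. Ndufa4 averaged 15.2 ± 3.84 CPM in YFP-positive and 15.6 ± 2.32 CPM in YFP-negative cells (SD, n = 4 each). Higd1a averaged 19.0 ± 3.66 CPM in YFP-positive and 17.0 ± 1.46 CPM in YFP-negative cells (SD, n = 4 each). Per kb, mean Ndufa4 was 25.5 times as high as mean Ndufa4l2 and mean Higd1a 126 times as high as mean Higd1b. The lowest ratio in a single library was 12.5 for Ndufa4 and 17.4 for Higd1a, and libraries with a count of 0 below the line give no ratio. The Higd1b level rests on 8 counts in 1 library, and 683 exon bases of Higd1a overlap an antisense gene. Of the 10 listed paralogs 7 were tested, and 0 rose or fell, beside 2.28% of all genes tested (median blocked log2 fold change 0.06). Ndufa4l2 and Cox4i2 are known targets of the hypoxia response, so other genes of that response were read beside them. All 15 were tested and 0 rose or fell, beside 2.28% of all genes tested, and the median blocked log2 fold change was 0.07. Their summed level was 1018 to 1792 CPM in YFP-positive and 1186 to 1755 CPM in YFP-negative libraries. The most abundant of them were Ndrg1, at 265 ± 106 CPM in YFP-positive and 294 ± 91.5 CPM in YFP-negative cells, and Ldha, lactate dehydrogenase A, at 222 ± 42.2 CPM in YFP-positive and 211 ± 36.0 CPM in YFP-negative cells (SD, n = 4 each).

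Some markers also differed between the replicate numbers, as did many other genes. In the additive edgeR fit, 4 of the 8 tested markers were called between the numbers, as were 39.3% of all genes tested. With 8 markers, these figures do not set the markers apart from genes in general. Pdgfrb, Cspg4 and Abcc9 were highest in number 3, with pair means of 384, 173 and 215 CPM, and lowest in number 2, with 232, 110 and 108 CPM (adjusted p = 4.9e-05, 7.0e-04 and 3.9e-06, edgeR). Rgs5 was lowest in number 3, with a pair mean of 798 CPM, and highest in number 4, with 1209 CPM (adjusted p = 2.8e-04, edgeR). The highest pair mean was 1.52 times the lowest for Rgs5 and 2.00 times for Abcc9. The fitted level in YFP-positive over YFP-negative cells was 0.777-fold for Rgs5 and 1.11-fold for Abcc9. A highest-over-lowest ratio of pair means is always at least 1 and is not the same measure as a fitted fold, so the sizes are not compared. The calls of Rgs5, Cspg4 and Pdgfrb rested on number 3. Without it, only Abcc9 was called among the markers, beside 32.6% of all genes tested, and Ndufa4l2 did not pass the count filter. The labels do not say what a number stands for, and both libraries of number 2 also stood apart on the first principal component of all genes tested (32.0% of the variance).

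**Figure D4:**
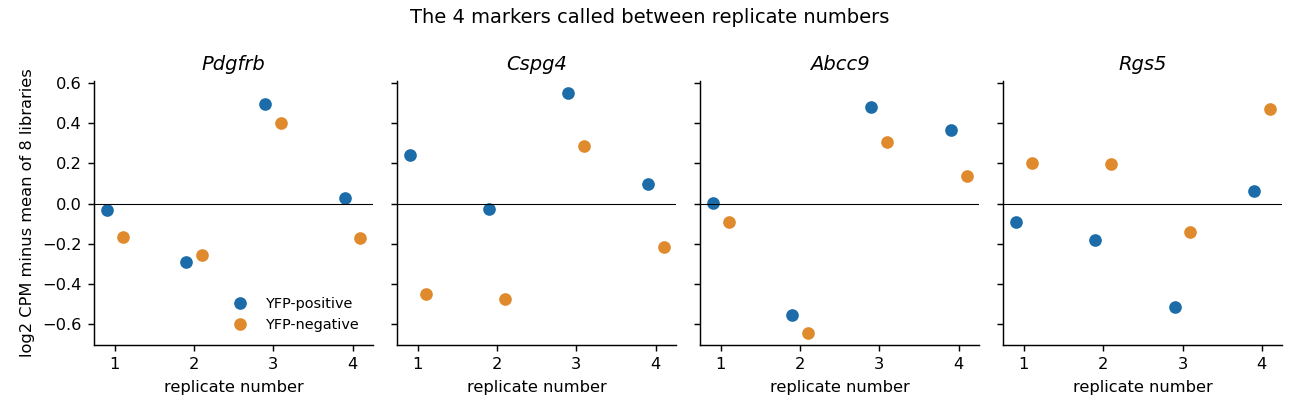
Log2 CPM minus the gene's mean over the 8 libraries, by replicate number, for the 4 markers called between the numbers, with YFP-positive libraries in blue and YFP-negative libraries in orange. Number 3 is the highest for Pdgfrb, Cspg4 and Abcc9 and the lowest for Rgs5, and within each number Cspg4 is higher and Rgs5 lower in the YFP-positive library.

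The profiles over the libraries were compared by the mean absolute difference between centred log2 CPM values, over 8 libraries. Among the tested markers Pdgfrb was near Cspg4 (0.167), Rgs4 (0.184) and Abcc9 (0.190), while Rgs5 was farther from Cspg4 (0.505) than from Rgs4 (0.298) or Ebf1 (0.312). Among 10049 genes of at least 5 CPM, the genes most like Rgs5 were Pard3b (0.0881), Pam (0.0906), Slc1a3 (0.0985), Aebp1 (0.104) and Plxdc2 (0.108). Those most like Cspg4 were Arl6ip4 (0.0769), Mrpl45 (0.0773), Tbc1d10b (0.0857), Tmem209 (0.103) and Rcor3 (0.105). None of the other listed markers was among them.

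Other genes of mural cells, listed beside the markers, also went both ways. Of 27 listed genes 24 were tested, 1 rose (Tbx2) and 3 fell (Steap4, Enpep and Cd248), beside 0.696% and 1.59% of all genes tested, and the median blocked log2 fold change was -0.01. Enpep, the angiotensin-cleaving aminopeptidase A, had 69.4, 54.8, 58.8 and 72.6 CPM in YFP-positive replicates 1 to 4, against 98.2, 77.1, 86.4 and 101 CPM in YFP-negative replicates 1 to 4. The groups did not overlap for Enpep, and the pairs differed by -0.50, -0.49, -0.55 and -0.47 on the log2 scale (adjusted p = 0.00188, edgeR with the block). The groups did not overlap for 3 of the 24 tested genes (Enpep, Heyl and Esam), as for 1.55% of all genes tested (0.69% higher and 0.859% lower in YFP-positive cells). None of the 8 tested markers had groups that did not overlap.

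Steap4, a metalloreductase, had 126, 252, 152 and 95.3 CPM in YFP-positive replicates 1 to 4, against 197, 347, 223 and 184 CPM in YFP-negative replicates 1 to 4 (log2 fold change -0.65, adjusted p = 2.9e-04, edgeR with the block). Number 2 was the highest in both groups, and each YFP-positive library was below its partner. Cd248, or endosialin, of pericytes and fibroblasts, had 79.9, 27.5, 40.8 and 49.2 CPM in YFP-positive replicates 1 to 4, against 104, 27.9, 58.9 and 81.0 CPM in YFP-negative replicates 1 to 4 (log2 fold change -0.43, adjusted p = 0.0445, edgeR with the block). Its call was lost in 4 of 10 blocked settings (adjusted p up to 0.331, edgeR). Tbx2, a T-box factor, had 94.99, 108, 157 and 114 CPM in YFP-positive replicates 1 to 4, against 60.1, 87.5, 112 and 74.3 CPM in YFP-negative replicates 1 to 4 (log2 fold change 0.52, adjusted p = 0.00200, edgeR with the block). It was higher in each pair, and Tbx2, Enpep and Steap4 were called in all 10 blocked settings.

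Notch3, the Notch receptor of mural cells, stood at 0.684 CPM per kb, and 488 of its exon bases overlap an antisense gene. It had 6.10, 7.18, 5.72 and 10.9 CPM in YFP-positive replicates 1 to 4, against 1.89, 6.82, 3.37 and 2.28 CPM in YFP-negative replicates 1 to 4, higher in 4 of 4 pairs and not called (log2 fold change 1.18, 95% interval 0.42 to 1.94, adjusted p = 0.130, edgeR with the block). Its target Heyl had the other direction, at 5.75 to 8.56 CPM in YFP-positive and 9.24 to 14.8 CPM in YFP-negative libraries (log2 fold change -0.79, adjusted p = 0.0828, edgeR with the block). Each was called in 1 of 10 blocked settings. For Notch3 this was the fit without number 2 (adjusted p = 0.0216, edgeR), and for Heyl it was DESeq2 (adjusted p = 0.0355). Foxs1, a forkhead factor of pericytes, had 55 counts over the YFP-positive and 4 over the YFP-negative libraries and was not tested. Of the 27 genes 7 were under 1 CPM per kb.

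**Figure D5:**
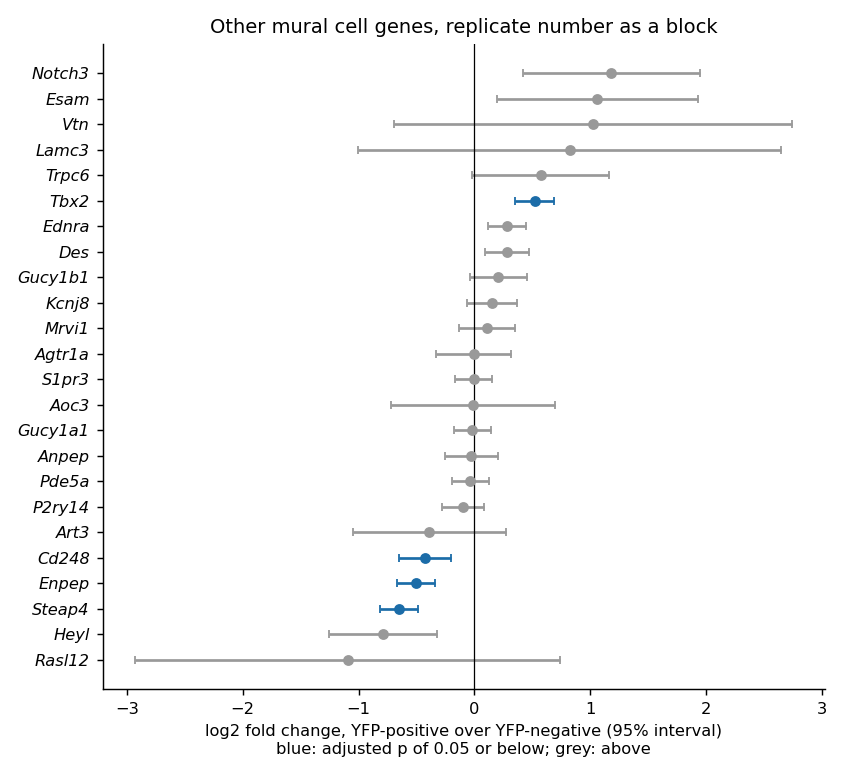
Log2 fold changes of the 24 tested genes of the further mural list, YFP-positive over YFP-negative, with 95% intervals from edgeR with the replicate number as a block. Tbx2 (0.52) rose and Cd248 (-0.43), Enpep (-0.50) and Steap4 (-0.65) fell (blue), while the genes in grey had an adjusted p above 0.05.

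Markers of the remaining cell types were low or also differed. Epithelial genes summed to 2.88 to 155 CPM in YFP-positive and 3.00 to 28.3 CPM in YFP-negative libraries. Epcam averaged 5.48 CPM in YFP-positive and 1.25 CPM in YFP-negative cells. Of the epithelial genes, 0 of 10 tested were called, beside 2.28% of all genes tested. Of 5 tested genes of interstitial cells of Cajal 1 rose (Gja1), beside 0.696% of all genes tested. By log2 fold change 3 of the 5 were higher and 2 lower. Their sum was 508 to 798 CPM in YFP-positive and 415 to 575 CPM in YFP-negative libraries, higher in 4 of 4 pairs. A call of 1 gene and a sum do not show more RNA of these cells. Mitochondrially encoded genes took 7.71% to 9.43% of the counts in YFP-positive and 8.07% to 12.4% in YFP-negative libraries, and the share was lower in the YFP-positive library of each pair; without these genes the blocked fit called Cspg4 (adjusted p = 0.00802, edgeR) and Rgs5 (adjusted p = 0.00261, edgeR). The part of the epithelial and interstitial cell genes in the markers' values was not tested.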

How the data were processed

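The authors deposited 1 table of raw counts per gene for the 8 libraries. Per the labels' protocols, RNA of cells sorted into lysis buffer was made into libraries with a stranded low-input total RNA kit and sequenced on a NextSeq. Per the submitters' processing notes, cutadapt 3.4, STAR 2.7.3a, featureCounts 2.0.1, DESeq2 and the build GRCm38 were used. The sources used here do not give the annotation release or the strand setting, so reads of opposite genes could not be told apart where exons overlap: 158 bases of Abcc9, 17 of Mcam and 32 of Ndufa4l2. Per the file headers, the deposited table also holds normalised values, a score equal to counts over size factors within rounding (largest difference 0.499995), and the authors' log2 fold changes and p-values. DESeq2 1.42.0 with replicate number and group called 496 genes, the same 496 as the authors' table; with group alone it called 2.

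From the counts, edgeR 4.0.16 in R 4.3.3 tested group alone (filterByExpr, TMM, robust quasi-likelihood, two-sided, Benjamini-Hochberg over 15945 genes, threshold 0.05). A second edgeR fit added the replicate number as a blocking term. Libraries of equal number correlated at 0.183, 0.442, 0.328 and 0.331 in their deviations from the group means (highest for unequal numbers 0.0273), so the numbers were taken to pair the samples, and values with the block stand beside each result. Libraries of the same group differed by more than counting noise in every case (chi-square per degree of freedom at least 56.6). Exon lengths and positions are from GENCODE M21, with 53706 of 53801 identifiers matched. The edgeR, DESeq2 and limma (3.58.1) steps were tested on simulated data. 1 count was worth 0.0337 to 0.0852 CPM.

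The markers, the gene lists and the tests were chosen with earlier results of these data known. Genes named were the markers, their fixed partners and paralogs, up to 4 called members of each list, and the 5 genes most like Rgs5 and Cspg4; Heyl, Esam, Foxs1 and the rest of the called or non-overlapping genes named were chosen after their values were seen. A symbol on more than one identifier was read from that with more counts. Alternatives were DESeq2, limma voom, other size factors and filters, libraries left out, and mitochondrial genes left out.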

Additional observations from a re-analysis of the deposited data

Results flagged for a closer look

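In each group of 4 libraries the highest or lowest value of each marker was compared with the others by Dixon's criterion, which chance meets in about 1 of 20 groups; 20 groups were examined and 2 met it. Higd1b stood at 0.32 CPM (8 counts) in YFP-positive replicate 3 and at 0 CPM in the other 3 YFP-positive libraries. With 3 values of 0, any count in the remaining library meets the criterion, so the rate of 1 in 20 does not apply to Higd1b. All YFP-negative libraries were at 0 CPM for Higd1b, and that group, among the 20 examined, could not meet it. Pdgfrb stood at 371.7 CPM in YFP-negative replicate 3, against 235 to 251 CPM in the other 3 YFP-negative libraries, and YFP-positive replicate 3 was also the highest of its group, at 397 CPM.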

How the results depend on the processing

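Without the replicate block, the count of genes called between the fractions stayed at 0 in every setting run except DESeq2, which called 2, and 0 markers were called in each. With the replicate block, edgeR called 364 genes and 2 markers with TMM factors, 364 and 2 with RLE factors, 365 and 2 with library sizes alone, 416 and 2 with a filter of 2 CPM in 4 libraries, 367 and 2 without mitochondrial genes, and DESeq2 called 525 and 2. Leaving out both libraries of a replicate number gave 194, 426, 157 and 167 genes for numbers 1 to 4 and 1 to 2 markers in the blocked fit (without number 1 only Rgs5, without number 3 only Cspg4), and each single library left out without the block gave 0 and 0. Rgs5 was lower and Cspg4 higher in all 10 blocked and all 15 unblocked settings. The count of markers called between replicate numbers was 4 or 5 in the settings run, and 1 to 5 when a number was left out. Directions of markers that were never called turned as follows. Rgs4 had log2 fold changes of -0.095 to 0.133 with single libraries left out, with -0.038 without YFP-negative replicate 2, and in the blocked fit -0.014 without number 2 and -0.078 without number 3. Pdgfrb ranged over -0.066 to 0.278 with single libraries left out, the lowest without YFP-positive replicate 3, and without replicate number 1 the blocked fit turned Mcam to 0.053 and Ndufa4l2 to 0.13. The causes were not tested. Depth limits Ndufa4l2, Cox4i2 and Higd1b, which had 75, 45 and 8 counts over all libraries.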
